A study of Homo sapiens with 12 samples.

Results

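The comparison described here is that of differentiated cells without the 2 H3K27 demethylases against their wild-type counterparts. It rests on 4 of the 12 samples of the series, chosen by their labels: 2 samples of dKO-D28 cells and 2 of WT-D28 cells. All 12 samples derive from H1, an established human embryonic stem cell line, and the labels of a further 4 samples used beside the results name WT and dKO neural progenitor cells (NPCs) with no passage number. The remaining samples are labelled as WT and dKO NPCs of passage 4. They entered the filter, the scaling and the fit, but their levels are not described here. WT-D28 and dKO-D28 cells were NPCs of either genotype that had been plated on Matrigel, given the ROCK inhibitor Y-27632 for a day, and then kept in N2B27 medium with GDNF, BDNF and cAMP but without FGF2 and EGF, for 28 days of spontaneous differentiation. In dKO cells the catalytic domain of JMJD3 (gene KDM6B) was deleted with Cas9 and a donor cassette that was later excised with Cre mRNA, and that of UTX (gene KDM6A) was deleted afterwards in the same cells. The number of clones and of separate differentiations is not given in the sources used here. The p-values therefore measure only a spread between replicate samples, pooled over the groups of the series, which may be technical.

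UTX and JMJD3 remove methyl groups from lysine 27 of histone H3, a mark that Polycomb repressive complex 2 writes on developmental genes held silent. When growth factors are withdrawn, NPCs leave the cell cycle and give rise to neurons and then glia, and many of the genes that are switched on along the way carry this mark in progenitors. The comparison asks which genes differ between cells that did and cells that did not have the demethylases over that course.

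The WT-D28 samples had totals of 8813561 and 10601172 counts, and those of dKO-D28 4082248 and 5214431. Levels are given as CPM, each count scaled to its library's size after TMM normalization, and replicate 1 is named before replicate 2 throughout. A count of 3, taken as the floor of detection per library, corresponded to 0.36 and 0.302 CPM in WT-D28 and to 0.727 and 0.579 CPM in dKO-D28. Counting error is all that these floors cover, as the reads carry no molecular identifiers. The share of counts on mitochondrially encoded genes was 4.40% and 4.99% in WT-D28 and 3.84% and 5.18% in dKO-D28, so the groups overlapped in it. The 2 dKO-D28 samples stood apart from the rest in how much they differed from each other: chi-square per degree of freedom was 11.3 between them, 2.72 between the WT-D28 samples and at most 2.57 between the samples of the other groups. As the fit shares its estimate of spread across the groups, standard errors and p-values may be too small for genes in which the dKO-D28 samples differ. Among 54 cytosolic ribosomal protein genes, 52 were tested and 0 were called in either direction, with a median log2 fold change of 0.13.

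The targeted genes were read first. KDM6A (chromosome X, 44873188 to 45112779, hg38) had 44.3 and 49.0 CPM in WT-D28 and 59.4 and 32.4 CPM in dKO-D28. The dKO-D28 samples fell on either side of both WT-D28 samples, and the log2 fold change was -0.04 ± 0.20 (SE, n = 2 per group, edgeR adjusted p = 0.89). It was -0.53 without dKO-D28 replicate 1 and 0.35 without dKO-D28 replicate 2, on either side of 0. KDM6B (chromosome 17, 7834217 to 7854796) had 205 and 189 CPM in WT-D28 and 146 and 152 CPM in dKO-D28, a log2 fold change of -0.40 ± 0.10 (edgeR adjusted p = 0.00387) that was below the fold threshold. Counts over whole genes still include the exons outside the deleted domain, so these levels do not check the deletions.

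Tested were the 13454 genes whose raw count averaged 20 or more over the 12 samples. Of these, 1675 (12.4%) were higher and 1575 (11.7%) were lower in dKO-D28 than in WT-D28 by more than 2-fold with p below 0.05 before adjustment (edgeR quasi-likelihood test, 2 samples per group). With Benjamini-Hochberg adjusted p-values in place of the unadjusted ones the numbers were 1667 and 1572. Both dKO-D28 samples lay below both WT-D28 samples for all 1575 lower genes, and above them for 1671 of the 1675 higher genes. Such separation was common in these data: 38.1% of all tested genes lay above and 38.8% below without overlap, 77% in all. At any fold, 7287 genes (54.2%) had an adjusted p below 0.05. The median log2 fold change over all tested genes was 0.003. In a bulk sample, fewer cells of a type and less RNA per cell cannot be told apart, and this holds for each gene below.

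**Figure D1:**
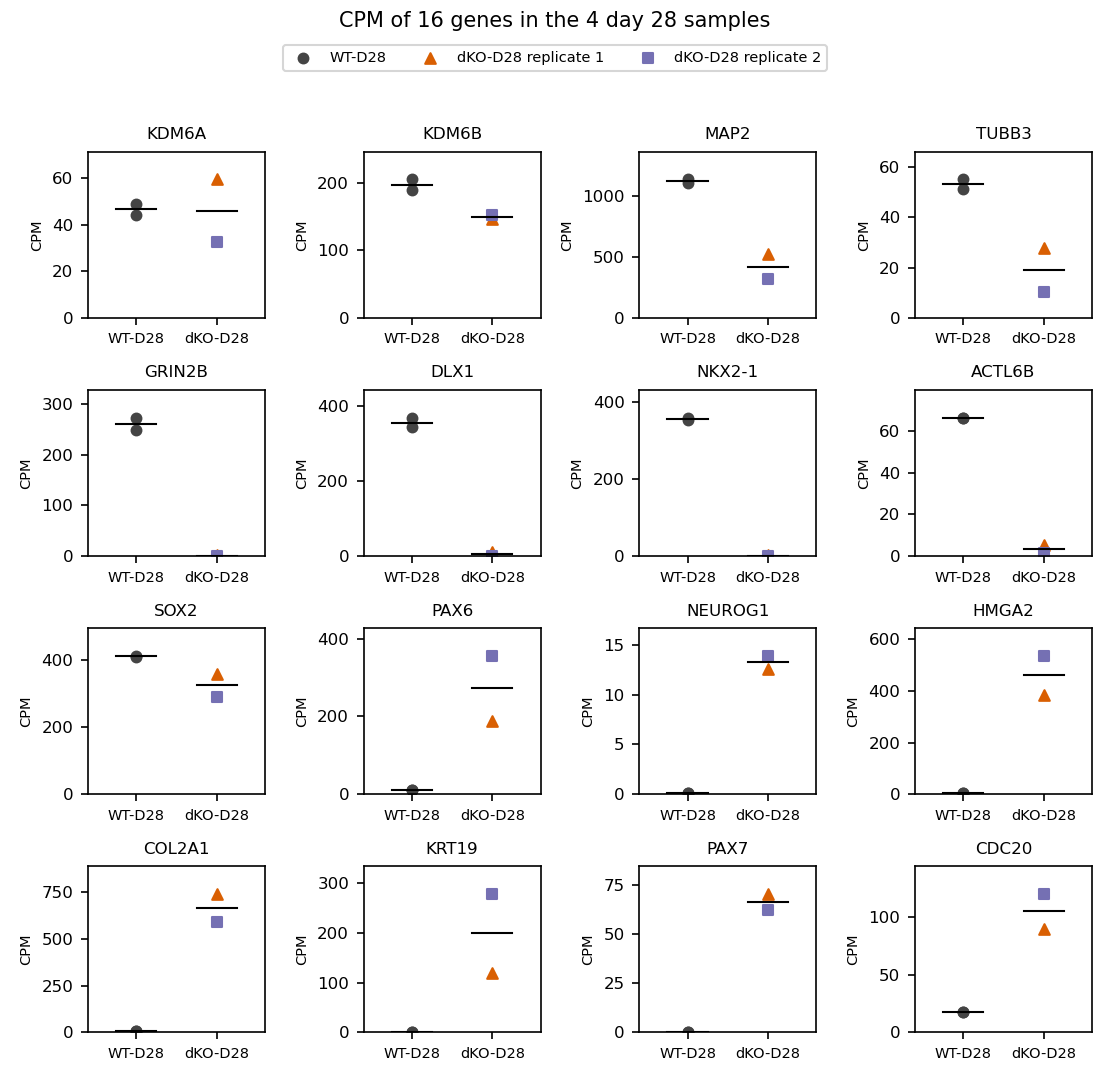
CPM (vertical axes, starting at 0, a separate scale for each gene) of 16 genes in the WT-D28 samples (circles) and in dKO-D28 replicate 1 (triangle) and replicate 2 (square), with group means as lines (n = 2 per group). KDM6A overlaps between the groups, MAP2 to ACTL6B lie lower in both dKO-D28 samples, SOX2 differs by less than 2-fold, and PAX6 to CDC20 lie higher in both.

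The 10 largest falls, ranked by fitted log2 fold change among well-expressed genes, were led by genes of the ventral forebrain and of its neurons. NKX2-1 (chromosome 14, 36516392 to 36521149), the transcription factor that specifies the medial ganglionic eminence, had 360 and 354 CPM in WT-D28 and 1.94 and 0.193 CPM in dKO-D28, a log2 fold change of -8.47 ± 0.28 (edgeR adjusted p = 5.04e-12). LHX8, a LIM homeobox factor of cholinergic neurons, went from 112 and 119 CPM to 0.485 and 0.386 CPM, and LHX6, needed for cortical interneurons, from 40.8 and 40.5 CPM to 0.485 and 0 CPM. SHH, the ventralizing ligand, had 62.4 and 63.5 CPM in WT-D28 and 0.485 and 0.193 CPM in dKO-D28. In dKO-D28 replicate 2 all 4 were under the floor of detection, and in replicate 1 NKX2-1 was above it and the other 3 were under it.

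For LHX6 and SHH the dKO-D28 group held only 1 to 3 counts, so the ratio of dKO-D28 to WT-D28 is given with its exact 95% counting interval: 0.00528 (0.000639 to 0.0192) for LHX6 and 0.00512 (0.00105 to 0.015) for SHH. The same was true of HMX3, a homeobox gene, at 37.8 and 35.1 CPM against 0.242 and 0.193 CPM (ratio 0.00591, 0.000715 to 0.0214), and of SFTA3, at 26.5 and 25.2 CPM against 0 and 0.193 CPM (ratio 0.00417, 0.000105 to 0.0233). NKX2-1-AS1 was at 0 in both dKO-D28 samples and at 44.7 and 40.9 CPM in WT-D28, at least 58.9-fold lower when set against the floor per library. NKX2-1-AS1 overlaps NKX2-1 on the opposite strand, and as the use of strand in the counting is not given in the sources used here, reads of the pair cannot be told apart. The remaining 3 falls were GRIN2B, a subunit of NMDA-type glutamate receptors, at 274 and 248 CPM against 1.21 and 0.772 CPM (log2 fold change -8.03 ± 0.23), SPARCL1, a matricellular protein of astrocytes, at 679 and 710 CPM against 7.51 and 1.35 CPM (-7.38 ± 0.36), and BCAN, which encodes the proteoglycan brevican, at 185 and 173 CPM against 1.45 and 0.965 CPM (-7.20 ± 0.21).

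All of the 10 largest rises were in genes with 0 counts in both WT-D28 samples, so that each fold is a lower bound, the dKO-D28 mean over the larger WT-D28 floor. For the dKO-D28 sample below that mean the bound is smaller. MUC16, a transmembrane mucin of epithelia, had 119 and 215 CPM in dKO-D28, at least 463-fold higher. PAX7 (chromosome 1, 18630846 to 18748866), a paired-box factor of dorsal neural tube and neural crest, had 70.5 and 62.1 CPM, at least 184-fold higher. ALDH1A3 and ALDH1A1, which make retinoic acid, had 52.4 and 68.7 CPM and 21.1 and 78.7 CPM, at least 168-fold and 139-fold higher. The pair of samples was close for PAX7 and ALDH1A3 and far apart for ALDH1A1.

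The epithelial genes COL17A1, a collagen of hemidesmosomes, and ITGB6, an integrin subunit, stood at 28.6 and 64.3 CPM and at 42.4 and 48.3 CPM, at least 129-fold and 126-fold higher. ALDH1A3-AS1, whose gene overlaps ALDH1A3 on the opposite strand, had 28.1 and 46.5 CPM, SERPINB2, a protease inhibitor, 17.7 and 40.7 CPM, L1TD1, an RNA-binding protein of pluripotent cells, 33.9 and 20.5 CPM, and CDC20B 21.1 and 29.1 CPM. The bounds for these 4 were 104-fold, 81.1-fold, 75.5-fold and 69.8-fold. The fitted log2 fold changes of all 10, from 9.65 for CDC20B to 12.38 for MUC16, depend on the prior count of the fit and are not bounds.

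The bases before the start of transcription are shown for 4 of these 20 genes, those in which a search of RefSeq windows (GRCh38.p14, 250 bases before the start) found 1 of 2 E-boxes, the 6-base sites that neural basic helix-loop-helix factors such as the neurogenins bind. CAGATG (searched on both strands, so also as CATCTG) was in 2 of the 20 windows and in 12.2% of all 27305 windows of that length, and CAGCTG, which reads the same on both strands, was in 2 of the 20 and in 13.8% of all. Sequences run 5′ to 3′ along the gene, with E-boxes in capitals. The genes are MUC16 (chr19:9065752-9066001, minus strand), ALDH1A1 (chr9:72953054-72953303, minus strand), LHX8 (chr1:75128184-75128433, plus strand) and SHH (chr7:155812464-155812713, minus strand).
MUC16: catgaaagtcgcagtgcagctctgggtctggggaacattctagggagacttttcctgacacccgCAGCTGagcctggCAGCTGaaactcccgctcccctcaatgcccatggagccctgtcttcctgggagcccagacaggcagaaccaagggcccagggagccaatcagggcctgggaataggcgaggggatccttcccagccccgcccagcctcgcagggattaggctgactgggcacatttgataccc
ALDH1A1: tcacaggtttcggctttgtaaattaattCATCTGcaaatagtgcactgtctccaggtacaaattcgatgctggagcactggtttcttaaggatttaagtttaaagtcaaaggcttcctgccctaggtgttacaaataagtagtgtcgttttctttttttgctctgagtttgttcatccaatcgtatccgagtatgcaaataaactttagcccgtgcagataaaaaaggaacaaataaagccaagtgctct
LHX8: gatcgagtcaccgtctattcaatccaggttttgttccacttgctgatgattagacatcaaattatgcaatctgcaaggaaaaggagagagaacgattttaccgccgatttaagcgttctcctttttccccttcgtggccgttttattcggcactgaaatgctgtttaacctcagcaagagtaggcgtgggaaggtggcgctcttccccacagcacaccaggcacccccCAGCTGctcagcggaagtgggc
SHH: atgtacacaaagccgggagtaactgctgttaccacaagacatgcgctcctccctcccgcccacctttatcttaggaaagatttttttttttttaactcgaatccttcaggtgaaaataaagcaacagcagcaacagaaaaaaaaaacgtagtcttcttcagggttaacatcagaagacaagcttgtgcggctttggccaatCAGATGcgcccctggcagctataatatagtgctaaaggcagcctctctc
MUC16 and ALDH1A1 were higher and LHX8 and SHH were lower in dKO-D28, so that each E-box was found in 1 higher and 1 lower gene, with 2 copies of CAGCTG in MUC16. Such a match is a description of letters and not of a bound site. The RefSeq start of MUC16 lies upstream of the gene model whose coordinates are used here, and that of ALDH1A1 lies inside its gene model (chromosome 9, 72900671 to 73080442, minus strand), downstream of the start of that model.

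Most lists of neuronal genes had more lower than higher members in dKO-D28, while axon guidance genes moved both ways and proneural and cortical factors split nearly evenly. Shares of called members below are to be read beside the 12.4% higher and 11.7% lower among all tested genes. Of 34 genes for the neuronal cytoskeleton, 33 were tested, 24 were lower (72.7%) and 0 were higher, with a median log2 fold change of -1.52. MAP2, which stabilizes microtubules in dendrites, had 1141 and 1112 CPM in WT-D28 and 522 and 320 CPM in dKO-D28, a log2 fold change of -1.42 ± 0.17 (edgeR adjusted p = 1.46e-05). TUBB3, the neuronal tubulin, had 51.0 and 55.0 CPM against 27.6 and 10.2 CPM (-1.52 ± 0.32, adjusted p = 0.00211). Without dKO-D28 replicate 2 the log2 fold change of TUBB3 was -0.94, which is not past the fold threshold. The larger falls of this list were in GAP43, a protein of growth cones, at 584 and 611 CPM against 73.9 and 23.2 CPM (-3.65 ± 0.44), KIF21B (-3.60 ± 0.42), STMN4 (-3.34 ± 0.58) and INA, a neuronal intermediate filament, at 735 and 749 CPM against 90.7 and 58.7 CPM (-3.32 ± 0.16). MAP2 therefore remained at 320 CPM or more in both dKO-D28 samples. RBFOX3, the gene of the NeuN antigen, was below the filter, with 38 and 44 counts in WT-D28 and 16 and 14 in dKO-D28.

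Among 21 genes of neuronal RNA-binding proteins, 19 were tested, 12 were lower (63.2%) and 1 was higher (5.3%), with a median of -1.28. CELF4 had 272 and 276 CPM in WT-D28 and 13.1 and 5.79 CPM in dKO-D28 (log2 fold change -4.90 ± 0.26), CELF3 519 and 495 CPM against 82.2 and 27.8 CPM, and ELAVL3, of the Hu family, 376 and 355 CPM against 76.8 and 31.1 CPM. SRRM4, which drives neuronal microexon splicing, had 120 and 114 CPM against 25.7 and 12.5 CPM. In all 4 of these the first dKO-D28 sample lay between WT-D28 and the second.

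Synaptic genes gave a similar picture. Of 46 genes for synaptic vesicles and release, 41 were tested, 26 were lower (63.4%) and 4 were higher (9.8%), with a median of -1.60. SLC32A1, the vesicular GABA transporter, had 82.2 and 80.5 CPM in WT-D28 and 1.70 and 0.193 CPM in dKO-D28 (-6.51 ± 0.35), and RAB3C, a vesicle GTPase, 180 and 171 CPM against 8.73 and 5.60 CPM (-4.64 ± 0.18). SLC17A6, the vesicular glutamate transporter of subcortical neurons, went the other way, with 0.24 and 0.201 CPM in WT-D28 and 8.73 and 1.74 CPM in dKO-D28 (4.33 ± 0.81, adjusted p = 0.000611). Of 45 genes for postsynaptic scaffolds and glutamate receptors, 40 were tested, 24 were lower (60%) and 3 were higher (7.5%), with a median of -1.86. Beside GRIN2B, the kainate receptor gene GRIK3 had 477 and 473 CPM against 10.4 and 1.74 CPM, and the AMPA receptor gene GRIA2 446 and 474 CPM against 18.9 and 2.70 CPM. Voltage-gated channels had 24 of 33 tested genes lower (72.7%) and 2 higher (6.1%), with a median of -1.41, led by SCN4B (-5.64 ± 0.37) and KCND3 (-5.17 ± 0.31). SCN2A and SCN3A, sodium channel subunits, fell from 88.6 and 86.9 CPM to 6.79 and 2.32 CPM and from 161 and 168 CPM to 20.9 and 3.67 CPM.

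Of the neuronal lists, that of the GABAergic lineage had the lowest median log2 fold change, -3.21. Of its 33 genes 23 were tested, 18 were lower (78.3%) and 1 was higher (4.3%). Genes high in WT-D28 could pass the filter through that group, here and in the other neuronal lists. The counts and medians of these lists are therefore not tests of the lists. LHX6, for example, had 340 and 403 counts in WT-D28 and 2 and 0 in dKO-D28. DLX1 and DLX2, homeobox factors of GABAergic progenitors, had 369 and 343 CPM and 125 and 126 CPM in WT-D28. In dKO-D28 DLX1 had 10.7 and 0.965 CPM (-6.04 ± 0.55, edgeR adjusted p = 5.52e-05) and DLX2 had 7.27 and 5.60 CPM (-4.29 ± 0.27, adjusted p = 1.47e-08). The member that was higher was SP8, a zinc finger factor of dorsal interneuron progenitors and of anterior patterning, with 0.6 and 0.101 CPM in WT-D28 against 205 and 269 CPM in dKO-D28 (9.36 ± 0.27). GABBR1 was listed at 0 in all 12 samples, as were the widely expressed SMARCB1 and RING1 and several genes of the MHC region, so a value of 0 in all samples is not read as absence.

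Neuropeptide and granin genes split into 9 lower (81.8%) and 2 higher (18.2%) of 11 tested (of 25 listed, median -2.52). SCG2, a secretogranin of dense-core vesicles, had 587 and 588 CPM against 46.3 and 8.49 CPM, CHGB 128 and 131 CPM against 9.45 and 3.67 CPM, and TAC3 18.1 and 16.6 CPM against 0.242 and 0.579 CPM. CRH, the corticotropin-releasing hormone, had 0 and 0.302 CPM in WT-D28 and 8.73 and 10.2 CPM in dKO-D28, a ratio of 58.2 with a counting interval of 19.3 to 288. Axon guidance genes moved both ways, with 22 lower (40%, against 11.7% of all tested genes) and 12 higher (21.8%, against 12.4%) of 55 tested (median -0.64). EPHB1, an ephrin receptor, fell from 167 and 170 CPM to 7.27 and 5.60 CPM. RELN, the gene of the extracellular guidance protein reelin, rose from 10.2 and 8.55 CPM to 318 and 267 CPM (4.96 ± 0.15), and SEMA3E and SEMA3D, secreted semaphorins, rose by 5.19 ± 0.50 and 4.76 ± 0.36 on the log2 scale.

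Proneural and cortical transcription factors did not move as 1 group: of 24 tested (of 30), 9 were lower (37.5%, against 11.7% of all tested genes) and 8 were higher (33.3%, against 12.4%), with a median of -0.01. The higher ones included factors that open the excitatory neuron programme of the dorsal telencephalon. NEUROG1 and NEUROG2 had at most 0.12 CPM in WT-D28 and 12.6 and 13.9 CPM and 8.97 and 4.44 CPM in dKO-D28, ratios of 122 (counting interval 33 to 1016) and 118 (20.4 to 4729). EOMES, of intermediate progenitors, had 0.6 and 0.503 CPM against 20.6 and 24.3 CPM (5.29 ± 0.23), and TBR1, of early cortical neurons, 0.12 and 0.402 CPM against 29.1 and 17.9 CPM (6.25 ± 0.38). NEUROD1 was below the filter and had 0 and 0 counts in WT-D28 and 26 and 29 in dKO-D28, and NEUROD4 had 1 and 0 counts against 14 and 9.

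Regional genes of the forebrain differed in both directions: of 29 tested (of 45), 16 were higher (55.2%, against 12.4% of all tested genes) and 7 were lower (24.1%, against 11.7%), with a median of 1.15. PAX6, of dorsal forebrain progenitors and the eye field, had 11.9 and 11.7 CPM in WT-D28 and 190 and 356 CPM in dKO-D28 (4.53 ± 0.28, edgeR adjusted p = 4.10e-07). SIX6, of the eye field and ventral diencephalon, was at 0 in WT-D28 and at 19.6 and 29.1 CPM in dKO-D28, at least 67.7-fold higher. DMRT3, of the dorsal telencephalon, was at 0 against 15.5 and 25.5 CPM (at least 56.9-fold), and LMX1A, of the roof plate and cortical hem, at 0 against 4.36 and 11.2 CPM (at least 21.6-fold). The 7 lower members included NKX2-1, DLX1 and DLX2. In the eye list, of 10 tested genes (of 24) 6 were higher and 1 lower. The lower one was RPE65, of the visual cycle, which had 30.1 and 29.6 CPM against 0.485 and 0.193 CPM. Genes at 0 in WT-D28, such as SIX6, DMRT3 and LMX1A, could pass the filter only through other samples, dKO-D28 among them. The counts and medians of the regional and eye lists are therefore not tests of the lists. Of 39 HOX genes, which mark hindbrain and spinal cord, 0 passed the filter, and their summed level was between 0.727 and 3.52 CPM in all 4 samples.

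Progenitor genes moved in both directions. Of 36 tested genes of radial glia and progenitors (of 39), 13 were higher (36.1%, against 12.4% of all tested genes) and 7 were lower (19.4%, against 11.7%). The median was 0.24, and the summed level of the list was 9455 and 9426 CPM in WT-D28 and 10060 and 9726 CPM in dKO-D28. NES, the intermediate filament nestin, had 922 and 942 CPM in WT-D28 and 620 and 618 CPM in dKO-D28 (-0.59 ± 0.09). SOX2 had 412 and 409 CPM against 358 and 290 CPM (-0.34 ± 0.11), and SOX1 144 and 143 CPM against 117 and 114 CPM (-0.31 ± 0.10). These 3 core progenitor genes were below WT-D28 in both dKO-D28 samples with adjusted p-values of 4.41e-05, 0.0132 and 0.0159, but by less than 2-fold. Members with the largest fitted rises were PAX7 and PAX3, both at 0 in WT-D28, LIN28A, an RNA-binding protein of early progenitors, from 0.84 and 0.604 CPM to 32.2 and 80.3 CPM (6.26 ± 0.50), and HMGA2, a chromatin protein of the same stage, from 6.48 and 6.14 CPM to 385 and 536 CPM (6.19 ± 0.18).

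Cell cycle genes were higher in dKO-D28. Of 42 tested S phase genes 31 were higher (73.8%) and 0 lower (median 1.44), and of 54 tested G2/M genes 46 were higher (85.2%) and 0 lower (median 1.93). Among all tested genes 12.4% were higher and 11.7% lower. CDC20, which activates the anaphase-promoting complex, had 17.5 and 17.3 CPM in WT-D28 and 89.7 and 120 CPM in dKO-D28 (2.59 ± 0.15), and HMMR, a spindle protein, 6.48 and 7.65 CPM against 38.3 and 61.8 CPM (2.82 ± 0.24). CENPU, of the kinetochore, had 14.5 and 16.5 CPM against 93.1 and 84.3 CPM (2.51 ± 0.13), and CDC6, which loads the replicative helicase, 10.1 and 8.35 CPM against 42.4 and 50.4 CPM (2.34 ± 0.17). Each of these rises was larger than the spread between the samples of either group. Among 26 tested cell cycle regulators 11 were higher (42.3%) and 1 was lower (3.8%). The one that fell was CDKN2D, an inhibitor of CDK4 and CDK6 found in postmitotic neurons (68.3 and 61.7 CPM against 18.9 and 6.37 CPM), while CDKN2B, an inhibitor of the same kinases, rose from 2.16 and 2.41 CPM to 15.8 and 9.65 CPM.

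Astrocyte genes were mostly lower. Of 22 tested (of 27), 13 were lower (59.1%, against 11.7% of all tested genes) and 5 higher (22.7%, against 12.4%), with a median of -1.52. GFAP, the glial intermediate filament, had only 14.9 and 18.2 CPM in WT-D28 and 5.09 and 6.95 CPM in dKO-D28 (-1.44 ± 0.26, edgeR adjusted p = 0.000212). MLC1 fell from 118 and 104 CPM to 7.03 and 0 CPM, and NFIX, a gliogenic nuclear factor, from 29.9 and 31.2 CPM to 1.70 and 0.193 CPM. The 5 higher members, named after their values were seen, were GJA1, a gap junction connexin (120 and 112 CPM against 250 and 750 CPM), APOE, a lipid carrier (26.3 and 26.2 CPM against 61.3 and 116 CPM), ID3 (10.6 and 11.97 CPM against 39.3 and 111 CPM), the BMP receptor gene BMPR1B (4.201 and 5.73 CPM against 26.7 and 17.9 CPM) and S100A10 (14.2 and 13.9 CPM against 20.9 and 50.8 CPM). The log2 fold change of S100A10 was 0.57, under the threshold, without dKO-D28 replicate 2. The copper transporter gene SLC31A1 was below the fold threshold, with 37.3 and 33.7 CPM against 53.3 and 48.3 CPM (0.51 ± 0.13), and GJB6 was below the filter, with 0 and 0 counts against 3 and 8. Oligodendrocyte genes were little expressed, 4 of 17 having passed the filter. PDGFRA, a receptor of their precursors that mesenchymal cells also express, rose from 1.44 and 1.01 CPM to 8.48 and 10.6 CPM.

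Genes that mark other cell types were read to check the labelled identity. The 14 microglia and immune genes summed to 1.74 to 4.36 CPM in the 4 samples with 0 passing the filter, and AIF1, TYROBP, C1QA and TREM2 were listed at 0 in all 12 samples, which, as for GABBR1, is not read as absence. Endothelial and blood genes summed to 10.4 and 9.56 CPM in WT-D28 and 48.5 and 30.7 CPM in dKO-D28, with 2 of 17 tested and KDR, a VEGF receptor that progenitors also express, at 16.7 and 13.9 CPM in dKO-D28. Of 22 pluripotency and germ layer genes, POU5F1, NANOG, PRDM14 and FOXA2 were likewise listed at 0 in all 12 samples and are not read as absent. The 5 that were tested were higher: L1TD1, LIN28A, EOMES, SALL4 (2.04 and 2.52 CPM against 53.6 and 88.0 CPM) and DNMT3B, a DNA methyltransferase named here only to complete the 5. Genes high in dKO-D28 could pass the filter through that group, so the 5 of 5 is not a test of the list.

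Genes of surface epithelium formed the list with the largest rise. All 13 that were tested (of 19) were higher in dKO-D28, with a median log2 fold change of 5.86, and the summed level of the 19 was 32.5 and 35.7 CPM in WT-D28 and 1211 and 2259 CPM in dKO-D28. KRT19, a keratin of simple epithelia, had 0.12 and 0.503 CPM against 120 and 278 CPM (9.12 ± 0.62, edgeR adjusted p = 3.11e-06). CLDN4, a tight junction claudin, had 1.80 and 2.62 CPM against 135 and 292 CPM (6.56 ± 0.48). GRHL2, a transcription factor that maintains epithelia, had 0.12 and 0 CPM against 25.7 and 41.9 CPM, a ratio of 634 with a counting interval of 113 to 25120, and KRT7 had 0.36 and 0.201 CPM against 25.9 and 38.8 CPM. Members had to reach a mean of 20 counts to be tested, and these did so through dKO-D28, so the 13 of 13 is not a test of the list.

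Neural crest and placode genes had 8 of 14 tested members higher (57.1%, against 12.4% of all tested genes) and 3 lower (21.4%, against 11.7%), of 25 listed and with a median of 3.87. PAX3, a paired-box factor of the crest, was at 0 in WT-D28 and at 5.09 and 31.3 CPM in dKO-D28, TFAP2C at 0 against 6.55 and 23.0 CPM, and TFAP2B at 0.12 and 0 CPM against 6.55 and 48.3 CPM. The spread between the dKO-D28 samples was wide for all 3. For mesenchyme and smooth muscle 16 of 26 tested genes were higher (61.5%) and 3 lower (11.5%), with a median of 1.26. Among the higher ones were MSX2 at 0 against 2.91 and 14.9 CPM, and RUNX1 at 0.48 and 0.604 CPM against 17.7 and 28.2 CPM. Genes at or near 0 in WT-D28 could pass the filter only through other samples, dKO-D28 among them. The counts and medians of these lists are therefore not tests of the lists. The call of MSX2 was lost when GC content and gene length were corrected for (adjusted p = 0.13), although its fitted log2 fold change was then 7.67, against 8.21 without the correction. Of the 5 higher genes in the choroid plexus and ependyma list (13 tested, 2 lower), DNAH11, an axonemal dynein, had 4.80 and 4.33 CPM against 46.8 and 43.2 CPM.

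Matrix genes were higher. Of 24 tested collagens of fibrils and basement membranes 15 were higher (62.5%) and 3 lower (12.5%), with a median of 1.43. Of 47 tested genes for other matrix proteins and enzymes 24 were higher (51.1%) and 7 lower (14.9%), with a median of 1.24. Among all tested genes 12.4% were higher and 11.7% lower. COL2A1 rose from 6.48 and 8.25 CPM to 740 and 591 CPM (6.48 ± 0.16, edgeR adjusted p = 2.04e-13), the smallest p of all tested genes. COL18A1 rose from 30.2 and 28.0 CPM to 342 and 511 CPM, and FN1, which encodes fibronectin, from 123 and 118 CPM to 1351 and 1846 CPM (3.73 ± 0.21). COL8A1 fell from 39.4 and 38.8 CPM to 2.18 and 0.579 CPM.

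Signalling pathways were read from ligands to targets. In the Wnt list 19 of 37 tested genes were higher (51.35%, against 12.4% of all tested genes) and 4 lower (10.8%, against 11.7%), with a median of 1.03. The ligand WNT7B rose from 2.28 and 1.61 CPM to 56.0 and 129 CPM, RSPO1, which amplifies Wnt signals, from 1.32 and 0.402 CPM to 33.2 and 78.9 CPM, and SFRP2, a secreted Wnt modulator, from 6.001 and 4.43 CPM to 251 and 853 CPM (6.73 ± 0.70). In the BMP and TGF-beta list 16 of 30 were higher (53.3%) and 2 lower (6.7%), with a median of 1.06. The higher ones included the ligand BMP4 (0.6 and 0.302 CPM against 9.21 and 19.7 CPM), the receptor TGFBR2 (1.80 and 0.906 CPM against 23.5 and 14.5 CPM) and the target ID1 (8.88 and 7.24 CPM against 67.6 and 127 CPM). In both lists the members named here were higher in both dKO-D28 samples. They were picked as called members with large fold changes, so this is not a further result. Of all tested genes, 38.1% lay above both WT-D28 samples. The FGF list had 11 higher (44%, against 12.4% of all tested genes) and 7 lower (28%, against 11.7%) of 25. FGF14, an intracellular partner of sodium channels, fell from 129 and 130 CPM to 1.94 and 1.16 CPM. The FGF targets ETV4 and SPRY1 rose by 3.59 ± 0.31 and 2.75 ± 0.17 on the log2 scale. The Notch list had 3 higher and 3 lower of 23, 13.0% in each direction, which is near the 12.4% and 11.7% of all tested genes and no result about the list. Among its members the receptor NOTCH3 rose from 116 and 116 CPM to 376 and 549 CPM, the modifier LFNG rose, and DTX1 and the ligand DLL3 fell. The log2 fold change of DLL3 was -1.34 ± 0.21 with all samples and -0.91, under the threshold, without dKO-D28 replicate 2.

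Of 27 tested AP-1 and immediate early genes 5 were higher (18.5%, against 12.4% of all tested genes) and 3 lower (11.1%, against 11.7%), so the list was not far from the background. FOSB, an AP-1 subunit, rose from 44.5 and 42.7 CPM to 475 and 282 CPM, ATF3 from 24.0 and 21.5 CPM to 185 and 147 CPM and KLF4 from 3.12 and 2.21 CPM to 53.1 and 41.3 CPM, while ARC, which neurons induce on activity, fell from 152 and 153 CPM to 22.1 and 1.74 CPM. Of 31 tested apoptosis genes 8 were higher (25.8%, against 12.4% of all tested genes) and 2 lower (6.5%, against 11.7%). BMF and PMAIP1, pro-apoptotic BH3-only proteins, were up by 4.11 ± 0.35 and 3.13 ± 0.22 on the log2 scale. Glycolysis and hypoxia genes had 4 higher (12.1%) and 5 lower (15.2%) of 33. These shares are near the 12.4% and 11.7% of all tested genes and no result about the list. SLC2A1, the glucose transporter, rose from 116 and 113 CPM to 741 and 764 CPM (2.72 ± 0.10). Interferon and MHC class I genes had 3 higher (25%, against 12.4% of all tested genes) and 1 lower (8.3%, against 11.7%) of 12 tested. IFITM1 rose by 3.69 ± 0.32 on the log2 scale, and IFIT2 fell from 15.8 and 15.5 CPM to 0.727 and 0.386 CPM.

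Chromatin complexes were read last. BAF complexes remodel nucleosomes and exchange subunits when progenitors become neurons. Of 26 tested subunit genes 6 were lower (23.1%, against 11.7% of all tested genes) and 2 higher (7.7%, against 12.4%), with a median of -0.10. ACTL6B, the neuronal actin-like subunit, had 66.4 and 66.0 CPM in WT-D28 and 5.33 and 1.35 CPM in dKO-D28 (-4.38 ± 0.30, edgeR adjusted p = 9.64e-09), and ACTL6A, its progenitor counterpart, 48.7 and 52.8 CPM against 76.6 and 81.8 CPM (0.64 ± 0.12), below the fold threshold. DPF1, a neuronal subunit as well, fell by 2.14 ± 0.24 on the log2 scale. SMARCD3, which had 71.8 and 79.8 CPM in WT NPCs, fell by 1.45 ± 0.11. Of the ATPases, SMARCA2 had 87.4 and 86.2 CPM against 30.8 and 36.5 CPM (-1.36 ± 0.14), and SMARCA4 617 and 629 CPM against 614 and 670 CPM (0.04 ± 0.10, adjusted p = 0.735). Of 35 tested genes for factors that write, read or erase H3K27 methylation, 2 were lower (5.7%) and 0 were higher. Among all tested genes the shares were 11.7% and 12.4%. One of the 2 lower genes was CBX8, a reader of Polycomb complex 1, which fell from 62.7 and 57.7 CPM to 30.8 and 15.3 CPM. The log2 fold change of CBX8 was -1.41 ± 0.22 with all samples and -0.96, under the threshold, without dKO-D28 replicate 2.

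The 2 dKO-D28 samples differed from each other, and among called genes mostly in the same sense relative to WT-D28. A difference of over 2-fold between them (CPM + 0.5) was found in 795 of the 13454 genes (5.91%), against 31 (0.23%) between the WT-D28 samples. Of the 1575 lower genes, 1234 (78.3%) were higher in replicate 1 than in replicate 2, and of the 1675 higher genes 1177 (70.3%) were higher in replicate 2. Among the genes that were not called, 5024 of 10204 (49.2%) were higher in replicate 1. Replicate 1 was thus nearer to WT-D28 in most called genes of either direction. The median log2 ratio to the WT-D28 mean over the lower genes was -1.49 in replicate 1 and -1.95 in replicate 2, and over the higher genes 1.51 and 1.70.

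**Figure D2:**
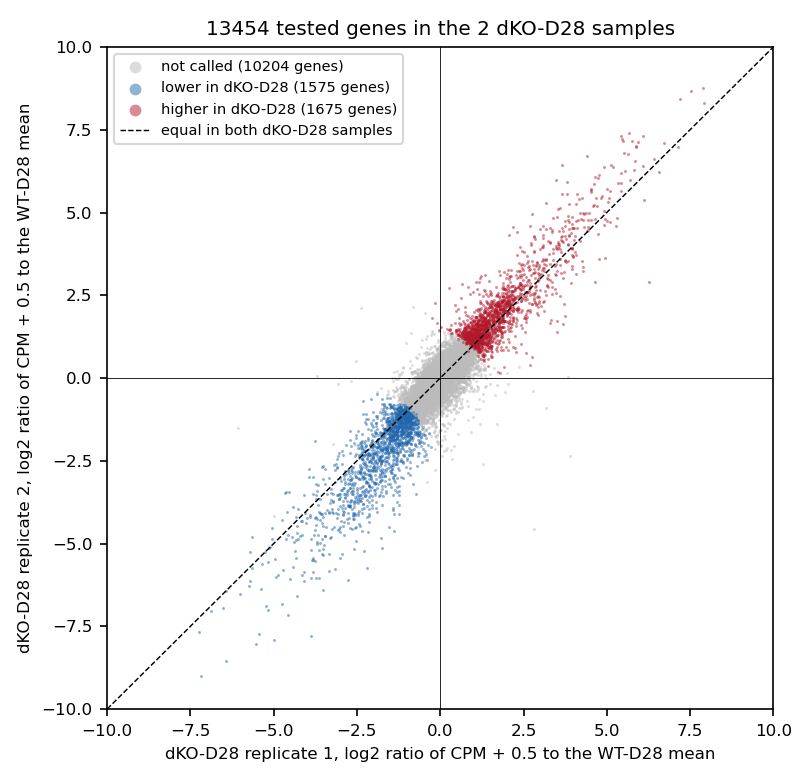
Log2 ratio of CPM + 0.5 to the WT-D28 mean in dKO-D28 replicate 1 (horizontal axis) and replicate 2 (vertical axis) for the 13454 tested genes, coloured by call, with a dashed line of equality. Most genes called lower lie below the line and most called higher above it, so that replicate 2 lies farther from WT-D28.

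The same order was seen in lists but not in every one. The summed level of the cytoskeletal list was 23430 and 23570 CPM in WT-D28, 8643 CPM in dKO-D28 replicate 1 and 5907 CPM in replicate 2. For the S phase list it was 1448 and 1485 CPM against 3215 and 4092 CPM, and for the G2/M list 3342 and 3388 CPM against 7356 and 8588 CPM. For the collagens the dKO-D28 samples were close (4020 and 3810 CPM against 1346 and 1341 CPM). Sums could rest on 1 member. The astrocyte list summed to 3216 and 3206 CPM in WT-D28, 1409 CPM in replicate 1 and 1954 CPM in replicate 2, of which GJA1 made up 250 and 750 CPM, and the median log2 ratio to WT-D28 over its tested members was -1.52 in both. The GABAergic sums were 425 and 431 CPM against 2133 and 2102 CPM, but SP8 made up 205 and 269 CPM of the former, and the median log2 ratio was -2.98 in replicate 1 and -3.62 in replicate 2.

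**Figure D3:**
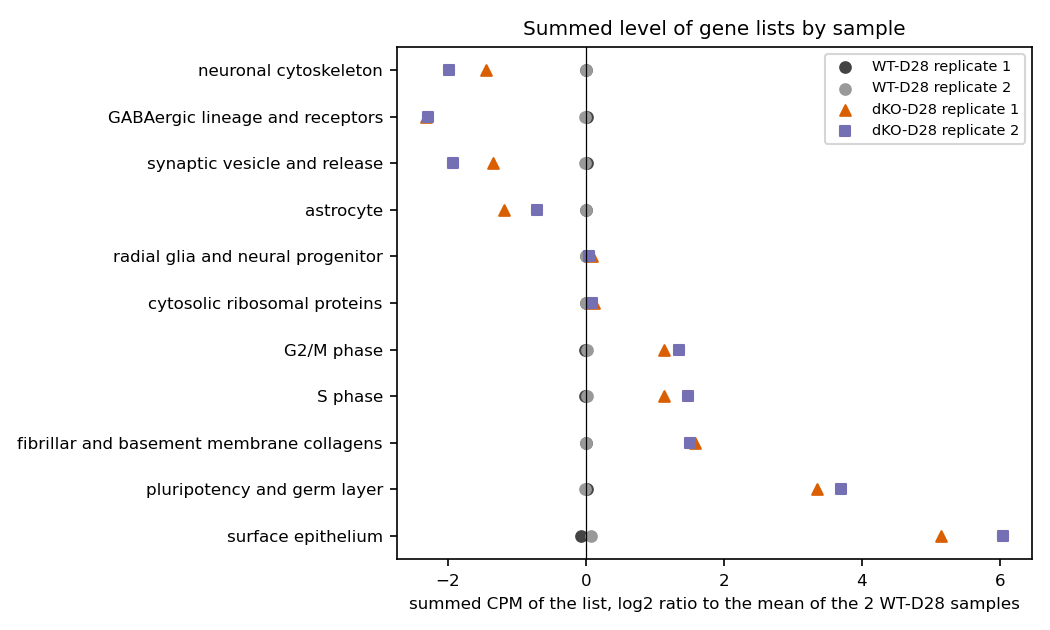
Summed CPM of all members of 11 gene lists in each day 28 sample, as the log2 ratio to the mean of the 2 WT-D28 samples (horizontal axis). The WT-D28 samples lie together near 0, and dKO-D28 replicate 2 lies beyond replicate 1 for cytoskeletal, cell cycle and epithelial lists while the collagen and ribosomal sums of the dKO-D28 samples lie together. The GABAergic sums also lie together, with SP8 adding 205 and 269 CPM to them.

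Some genes differed from WT-D28 far more in 1 dKO-D28 sample than in the other. Among 12434 genes with at least 10 CPM in some sample, 56 were more than 2-fold below WT-D28 in replicate 2 with replicate 1 within 0.25 of WT-D28 on the log2 scale, and 15 were so in replicate 1 with replicate 2 near WT-D28. For genes more than 2-fold above WT-D28 the numbers were 23 and 21. Of the 6 genes named next for their difference between the dKO-D28 samples, NR2F2 was within these limits and the other 5 were not. NR2F2, an orphan nuclear receptor of caudal ganglionic eminence, had 116 and 117 CPM in WT-D28, 17.7 CPM in replicate 1 and 109 CPM in replicate 2. FGFBP3, which binds FGFs, had 375 and 366 CPM in WT-D28, 490 CPM in replicate 1 and 88.6 CPM in replicate 2, and A2M, a protease inhibitor, had 9.12 and 11.1 CPM, 73.2 CPM and 7.53 CPM. OTX1, a forebrain homeobox gene, had 3.72 and 2.21 CPM in WT-D28, 14.1 CPM in replicate 1 and 69.3 CPM in replicate 2, and the epithelial genes CLDN1 (1.32 and 1.31 CPM, then 24.7 and 109 CPM) and GPRC5A (0.12 and 0.604 CPM, then 17.9 and 89.0 CPM) followed the same order. NR2F2, FGFBP3 and A2M were not called, with adjusted p-values of 0.305, 0.672 and 0.104, and each was called from 1 dKO-D28 sample alone: the log2 fold change of NR2F2 was -2.72 without replicate 2 and -0.11 without replicate 1, that of FGFBP3 0.40 and -2.07, and that of A2M 2.85 and -0.43.

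The count of called genes moved with these samples by less than 1.5 times. Without replicate 1 of dKO-D28 there were 1813 higher and 1879 lower genes, of which 1584 and 1515 were among those called with all samples. Without replicate 2 there were 1579 higher and 1498 lower genes, of which 1436 and 1341 were. Over the 12 alternative analyses of the same genes, 1255 higher and 1194 lower genes were called each time, and 0 genes called here were called in the opposite direction by any of them.

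The day 28 difference was set beside the NPC groups, which share no sample with it. There were 2 samples each of WT and dKO NPCs, with totals of 756942 to 1438807 counts. Of the 1575 genes lower in dKO-D28, 104 (6.6%) were also lower in dKO NPCs than in WT NPCs, which is 42.3% of the 246 genes lower there, and 43 were higher there. Of the 1675 genes higher in dKO-D28, 149 (8.9%) were also higher in dKO NPCs, 42.7% of the 349 higher there, and 28 were lower there. Of all 13454 tested genes, 246 were lower and 349 were higher in dKO NPCs, 4.42% in the 2 directions together. The 42.3% and 42.7% stand beside the 11.7% lower and 12.4% higher in dKO-D28 among all tested genes. The overlap was not tested.

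The effect of dKO differed between day 28 and NPCs, by a contrast of both in 1 edgeR fit, for 1619 genes (12%) in the positive and 1500 (11.1%) in the negative direction at the same thresholds. Of the lower genes, 1081 (68.6%) had a more negative effect at day 28, and of the higher genes 1266 (75.6%) a more positive one. The day 28 fold change that selected these genes is also a term of the contrast. These shares are therefore largely set by the selection and are not a further result. The same term enters the differences of the called genes named below. NKX2-1 had 67.9 and 71.6 CPM in WT NPCs and 88.6 and 117 CPM in dKO NPCs, and its effect at day 28 minus that in NPCs was -9.03 on the log2 scale (adjusted p = 2.11e-10). PAX6 had 304 and 262 CPM in WT NPCs and 209 and 178 CPM in dKO NPCs, and the same difference was 5.08 (adjusted p = 8.06e-06). DLX2 was lower at both stages, with 62.7 and 40.3 CPM in WT NPCs and 16.5 and 4.24 CPM in dKO NPCs, and the difference was -2.02 (adjusted p = 0.0111). KDM6A and KDM6B gave no difference between the stages that passed the test, with adjusted p-values of 0.295 and 0.229.

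Levels at day 28 were also compared with the mean of the 4 NPC samples, as a description. dKO-D28 lay within 2-fold of that mean for 1340 of the 1575 lower genes (85.1%) and 1356 of the 1675 higher genes (81%), and WT-D28 did so for 383 (24.3%) and 432 (25.8%). Over all tested genes the shares were 93.2% for dKO-D28 and 76.2% for WT-D28. The median log2 ratio to NPCs over the lower genes was 1.49 for WT-D28 and -0.23 for dKO-D28, and over the higher genes -1.47 and 0.13. For most called genes, then, it was the WT-D28 level that stood away from that of NPCs.

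Individual genes showed both patterns. COL2A1 had 685 and 745 CPM in WT NPCs and 755 and 759 CPM in dKO NPCs, near its level in dKO-D28, and HMGA2 had 394 and 393 CPM and 545 and 612 CPM. RELN, SP8 and SLC2A1 were likewise at 204 to 242, 95.3 to 108 and 665 to 715 CPM in WT NPCs, above their levels in WT-D28. KRT19, in contrast, had 10.4 and 13.4 CPM in WT NPCs and 13.5 and 14.9 CPM in dKO NPCs, and CLDN4 3.92 and 9.69 CPM and 5.26 and 7.78 CPM, so that both dKO-D28 samples lay far above every NPC sample. The effect on KRT19 and CLDN4 was more positive at day 28 by 8.91 and 6.76 on the log2 scale (adjusted p = 0.00123 and 0.00686). MUC16 was at 0 in all 4 NPC samples, where 3 counts correspond to at least 2.09 CPM. GRIN2B, with at most 2.83 CPM in any NPC sample, and MAP2, with 385 to 426 CPM, were on the other side: WT-D28 was above NPCs, and dKO-D28 was near them.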

How the data were processed

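RNA extracted with TRIzol was made into libraries with the TruSeq kit and sequenced on a NextSeq instrument. The authors deposited raw counts of reads per Ensembl gene for each sample, mapped to hg38 with HISAT2 2.0.4, sorted with SAMtools 1.3.1 and counted with htseq-count (HTSeq 0.6.0), with no normalization or filter. These tools are named in the submitters' processing notes. The annotation release and the strand setting are not given in the sources used here. Of 58302 genes, 57532 were found in GENCODE 44, which gave symbols, coordinates, length and GC content.

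Here, groups and replicate numbers were taken from the sample labels. All 12 samples were scaled with TMM and entered 1 fit of 6 group means in edgeR 4.0.16 under R 4.3.3, using its quasi-likelihood test with robust estimation. A gene entered if its count averaged 20 or more, which left 13454. Calls needed a fold change above 2 and p below 0.05 without adjustment, as in the study's methods, with adjustment by Benjamini-Hochberg shown alongside. Standard errors were obtained by dividing a log2 fold change by the square root of its F statistic. With 2 samples per group an exact permutation test cannot give a p below 0.333, so the tests rest on the spread shared across genes and groups. The fit was tested on counts simulated with the same dispersion in every group, so that test does not cover the wider spread of the dKO-D28 samples. DESeq2 1.42.0 and limma 3.58.1 were alternatives.

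The comparison, the 40 gene lists and the genes named were chosen with earlier results of these data known. Named genes are the 2 targets, the genes the study names, the 10 largest rises and falls with at least 20 CPM in the higher group, an adjusted p below 0.05 and no overlap, up to 4 called members of each list (with up to 2 others where fewer were called), and the 6 genes most different between the dKO-D28 samples in either direction at 50 CPM or more. Some genes that this rule names are not reported here. A list is described by its counts and its median, with no test. Members of any list could pass the filter through the group in which they were high. The check of promoter composition that was planned is void, since RefSeq windows were found for 75.1% of tested genes, under the 80% required.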

Additional observations from a re-analysis of the deposited data

Results flagged for a closer look

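The effect of dKO at day 28 differed from its effect in NPCs for 3119 of the 13454 tested genes, by the contrast of both effects in 1 edgeR fit at an unadjusted p below 0.05 and a difference above 2-fold. The difference was positive for 1619 genes and negative for 1500. Total counts were 756942 to 1438807 in the 4 NPC samples and 4082248 to 10601172 in the 4 day 28 samples, and the part of depth in this number was not tested.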

How the results depend on the processing

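The number of genes past the thresholds moved by over 1.5 times only with the filter on low counts: 2920 were lower and 3117 higher when 1 count in any sample was enough (34982 genes tested), and 843 were lower and 1039 higher with at least 10 counts in every sample (9967 genes tested). Without 1 of the 4 day 28 samples in turn, lower genes numbered 1498 to 1879 and higher genes 1579 to 1813. The other alternatives (DESeq2, limma with quality weights, upper-quartile scaling, the 4 day 28 samples alone, thinning to the lowest day 28 total, adjusted p-values, and correction for GC content and gene length) gave 1495 to 1618 lower and 1647 to 1749 higher genes. Upper-quartile scaling moved the median of all genes to 0.052. The groups share replicate numbers, but same-numbered samples did not deviate together (correlation -0.0478 between WT-D28 and dKO-D28, over only 2 pairs), so the numbers were not taken as pairs: with the replicate block, 1579 genes were lower and 1662 higher, and 1627 and 1701 with the block and that correction together. The 8 samples of the 4 groups alone gave 3020 genes of 13525 tested with a different effect at day 28 and in NPCs.

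Of 1786 values for 133 named genes under alternatives, 1767 kept direction and side of the threshold. KDM6A changed sign with upper-quartile scaling (0.011), the correction (0.036), the correction with the replicate block (0.020), and without WT-D28 replicate 2 (0.041), and without 1 dKO-D28 sample it was -0.530 to 0.346. SMARCA4 did so with the filter of 1 count (-0.013), and was -0.021 to 0.102 without 1 dKO-D28 sample. Likewise A2M was -0.433 to 2.845 and FGFBP3 -2.065 to 0.404. The cause was not tested. MSX2 was also not called with the replicate block and the correction, with a log2 fold change of 7.76 against 8.21. The check of promoter composition was not run, being void. Of 38 list medians, those of proneural factors, Notch, BAF, H3K27 methylation, interferon, glycolysis, mitochondrial, oligodendrocyte and neural crest genes changed sign under some alternative, neural crest (-1.15) over the 2 genes left by the filter of 10 counts. Genes near the floors above are limited by depth.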
